A study of Mus musculus with 6 samples.

Results

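Zinc transporters and metallothioneins were followed in the back skin of Get1 -/- and Get1 +/+ mouse embryos at e18.5, with 3 arrays, 1 per mouse, for each genotype. Get1 is an older name of Grhl3, a grainyhead-family transcription factor of surface epithelium, and Get1 -/- mice carry no intact copy of it. The comparison asks which skin transcripts differ when this factor is missing. The labels give no sex, strain or litter for either genotype, and they do not say which part of the gene was deleted. The 10 genes were Slc39a1, Slc39a2, Slc39a3, Slc39a4, Slc39a6, Slc39a8, Slc30a1, Mt1, Mt2 and Mt4. Every probe set with 1 of these gene symbols in the platform annotation was taken, which gave 17 of 45037 probe sets for 10 of 18193 named genes. The genes were chosen with their differences between the genotypes already known, so their values and differences are a description. Their standard errors (SE), and the intervals given for Mt1 and Mt2, come from the limma fit over all probe sets. Each SE is moderated by eBayes, so it also draws on the spread of the other probe sets. The p-values of that fit are used for the members only in counts beside the background. All values are MAS5 signals in arbitrary units, already scaled to the same trimmed mean on each array, and the number of arrays limits their precision. Of the 17 probe sets, 13 had a mean log2 signal at or above the median of all probe sets (a signal of 137) and were kept, which left Slc39a4 with none.

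Cells hold nearly all their zinc bound to proteins, and free zinc is kept very low. Slc39 (ZIP) proteins carry zinc into the cytosol from outside the cell or from organelles, Slc30 (ZnT) proteins carry it out of the cytosol, and metallothioneins are small cysteine-rich proteins that bind it. The zinc-sensing factor MTF1 switches on Mt1, Mt2 and Slc30a1 through short sequences called metal response elements. Epidermis needs a steady zinc supply, and loss of ZIP4 (SLC39A4) in humans causes acrodermatitis enteropathica, a disease of inherited zinc deficiency with skin lesions.

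The promoters of 4 genes are shown because they separate the genes with known zinc control from Slc39a2, the gene with the lowest Get1 -/- values relative to Get1 +/+ among the kept probe sets. RefSeq windows of build GRCm38.p6, from 250 bases before to 50 bases after a gene's start, were found for 8 of the 10 genes (9 windows). Capitals mark the core of the metal response element, spelled TGCACNC or TGCGCNC, or the grainyhead consensus AACCGGTT, each searched on both strands. No match overlapped another. The Mt2 window is chr8:94172368-94172667, the Mt1 window chr8:94178839-94179138, the Slc30a1 window chr1:191906531-191906830 and the Slc39a2 window chr14:51893360-51893659, all on the plus strand.
Mt2: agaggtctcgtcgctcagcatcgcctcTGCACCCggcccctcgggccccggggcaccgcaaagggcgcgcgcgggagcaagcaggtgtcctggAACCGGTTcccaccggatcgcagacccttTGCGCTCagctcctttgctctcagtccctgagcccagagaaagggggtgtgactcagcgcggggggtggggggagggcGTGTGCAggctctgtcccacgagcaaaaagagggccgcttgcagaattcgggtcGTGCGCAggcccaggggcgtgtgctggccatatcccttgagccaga
Mt1: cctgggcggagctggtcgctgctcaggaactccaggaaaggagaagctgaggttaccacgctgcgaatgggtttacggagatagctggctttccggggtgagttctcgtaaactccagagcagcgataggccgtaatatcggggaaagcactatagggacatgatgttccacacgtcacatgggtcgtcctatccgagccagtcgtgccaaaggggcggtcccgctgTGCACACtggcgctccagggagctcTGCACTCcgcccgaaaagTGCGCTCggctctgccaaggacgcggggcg
Slc30a1: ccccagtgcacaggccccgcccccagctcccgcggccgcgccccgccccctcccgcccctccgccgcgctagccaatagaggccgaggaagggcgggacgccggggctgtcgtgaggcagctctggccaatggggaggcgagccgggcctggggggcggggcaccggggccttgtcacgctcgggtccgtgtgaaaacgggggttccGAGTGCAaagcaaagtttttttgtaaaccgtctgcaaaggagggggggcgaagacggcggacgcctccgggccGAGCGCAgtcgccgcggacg
Slc39a2: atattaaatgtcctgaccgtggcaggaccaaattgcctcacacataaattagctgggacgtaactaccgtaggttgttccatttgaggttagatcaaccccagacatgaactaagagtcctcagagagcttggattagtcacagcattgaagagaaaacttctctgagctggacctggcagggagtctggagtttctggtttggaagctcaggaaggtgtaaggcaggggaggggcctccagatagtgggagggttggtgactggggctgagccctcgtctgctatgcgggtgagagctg
The Mt2 window held 4 matches to the metal response core, the Mt1 window 3, the Slc30a1 window 2 and the Slc39a2 window 0. Among the other members, the windows of Mt4 and Slc39a3 and 1 of 2 Slc39a8 windows held 1 match each, and that of Slc39a1 held 0. At least 1 match was present in 25.7% of the 32851 promoter windows in the table, at least 2 in 7.11% and at least 3 in 1.97%. The Mt2 window also held 1 match to AACCGGTT, which starts 157 bases before the annotated start and was present in 0.146% of all windows. The Slc39a2 window held 0 matches to it. Each window follows an annotated start, and matches beyond its 300 bases were not counted, so a count may miss part of a gene's promoter. These are matches of letters, and no binding was measured.

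The targeted gene had lower values in Get1 -/- skin. Grhl3 read 246, 413 and 379.7 in Get1 -/- skin, against 478, 934 and 670.1 in Get1 +/+ skin, with no overlap between the genotypes. Its log2 difference was -0.98 ± 0.28 (SE), and the adjusted p was 0.497 in limma over all genes, which missed the threshold of 0.05. Whether this probe set lies inside the deleted part is not known, so its values may not check the genotype.

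Zinc importers held both the largest difference among the kept probe sets and the one member that was higher in Get1 -/- skin. Slc39a2 encodes ZIP2, an importer of the cell surface that is known in human epidermis from differentiating keratinocytes. Slc39a2 read 129.8, 227 and 131 in Get1 -/- skin, against 312, 823 and 470.2 in Get1 +/+ skin. All 3 Get1 -/- arrays were below all 3 Get1 +/+ arrays, and the Get1 +/+ arrays were spread more widely among themselves than the Get1 -/- arrays. The mean was 163 ± 55.6 in Get1 -/- skin and 535 ± 262 in Get1 +/+ skin (SD, n = 3 each), a log2 difference of -1.65 ± 0.38 (SE), which is a 3.15-fold lower geometric mean. The lowest Get1 -/- values lie just under the filter's signal of 137, where a silent gene's probe set may read as well. In bulk skin, fewer cells of a type and less RNA per cell cannot be told apart.

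Across the 6 arrays the order of Slc39a2 was that of Grhl3, with Get1 +/+ replicate 2 highest, then Get1 +/+ replicates 3 and 1, then Get1 -/- replicates 2, 3 and 1. Tgm1, which encodes the transglutaminase that crosslinks the cornified envelope, was the only 1 of 12 markers of differentiating keratinocytes with the same order. For Slc39a2 the place of the last 2 arrays rests on 131 against 129.8, both under the filter's signal. The order was noticed after the values were seen, and 112 other genes of 11387 shared it (0.984%). Only a gene with all 3 Get1 -/- arrays below all 3 Get1 +/+ arrays can have this order. Of the 11387 genes, 772 were of that kind, and Slc39a2 was chosen on this contrast. Nothing is therefore read from the shared order.

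Slc39a8 and Slc39a6 each had a kept probe set with lower values in Get1 -/- skin and another that differed less. Slc39a8 encodes ZIP8, which also carries manganese. Its probe set 1448482_at read 295, 505 and 253 in Get1 -/- skin, against 433, 968 and 621 in Get1 +/+ skin, a log2 difference of -0.93 ± 0.35 (SE). The genotypes overlapped there, since Get1 -/- replicate 2 was above Get1 +/+ replicate 1. Its probe set 1416832_at read 1169, 1058 and 834 in Get1 -/- skin, against 794, 1731 and 1337 in Get1 +/+ skin, a difference of -0.28 ± 0.28. Here the lowest of all 6 values was that of Get1 +/+ replicate 1, and without Get1 +/+ replicate 2 the difference was -0.03.

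Slc39a6 encodes ZIP6, an importer related to ZIP10. Its probe set 1424675_at read 283, 351 and 289 in Get1 -/- skin, against 375, 651 and 636 in Get1 +/+ skin, a log2 difference of -0.81 ± 0.25 (SE). The genotypes did not overlap. Its probe set 1424674_at read 3591, 2979.8 and 2868 in Get1 -/- skin, against 3573, 3538 and 3913 in Get1 +/+ skin, a difference of -0.23 ± 0.14, and the genotypes overlapped. The remaining Slc39a6 probe sets, 1441949_x_at and 1447893_x_at, fell below the filter, with values from 8.17 to 92.5 in Get1 -/- skin and from 9.30 to 78.3 in Get1 +/+ skin. The probe sets of a gene can detect different transcript ends, and which of them tracks the protein was not tested.

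Slc39a1 was the one member with higher values in Get1 -/- skin. It encodes ZIP1, a broadly expressed importer. Slc39a1 read 905, 790.3 and 783 in Get1 -/- skin, against 556, 678 and 765 in Get1 +/+ skin, a log2 difference of 0.32 ± 0.18 (SE). The genotypes did not overlap, but the lowest Get1 -/- array (783) and the highest Get1 +/+ array (765) lay close together.

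Slc39a3 and Slc39a4 gave smaller differences relative to their spread. Slc39a3 encodes ZIP3. Its probe set 1417881_at read 262, 240.3 and 323 in Get1 -/- skin, against 380.2, 229 and 381 in Get1 +/+ skin, a log2 difference of -0.24 ± 0.26 (SE). The probe set 1417882_at of Slc39a3 read 273, 203 and 299 in Get1 -/- skin, against 263, 309.6 and 209 in Get1 +/+ skin, a difference of -0.01 ± 0.25. The genotypes overlapped in both, and replicate 2 of Get1 +/+ was the lowest of the 6 arrays in the first of them and the highest in the second. Slc39a4, the mouse gene of ZIP4, read 49.4, 47.3 and 50.7 in Get1 -/- skin, against 44.6, 55.8 and 90.4 in Get1 +/+ skin. These values lay below the filter on all arrays and the genotypes overlapped, so nothing further is drawn from its difference of -0.31 ± 0.47.

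**Figure D1:**
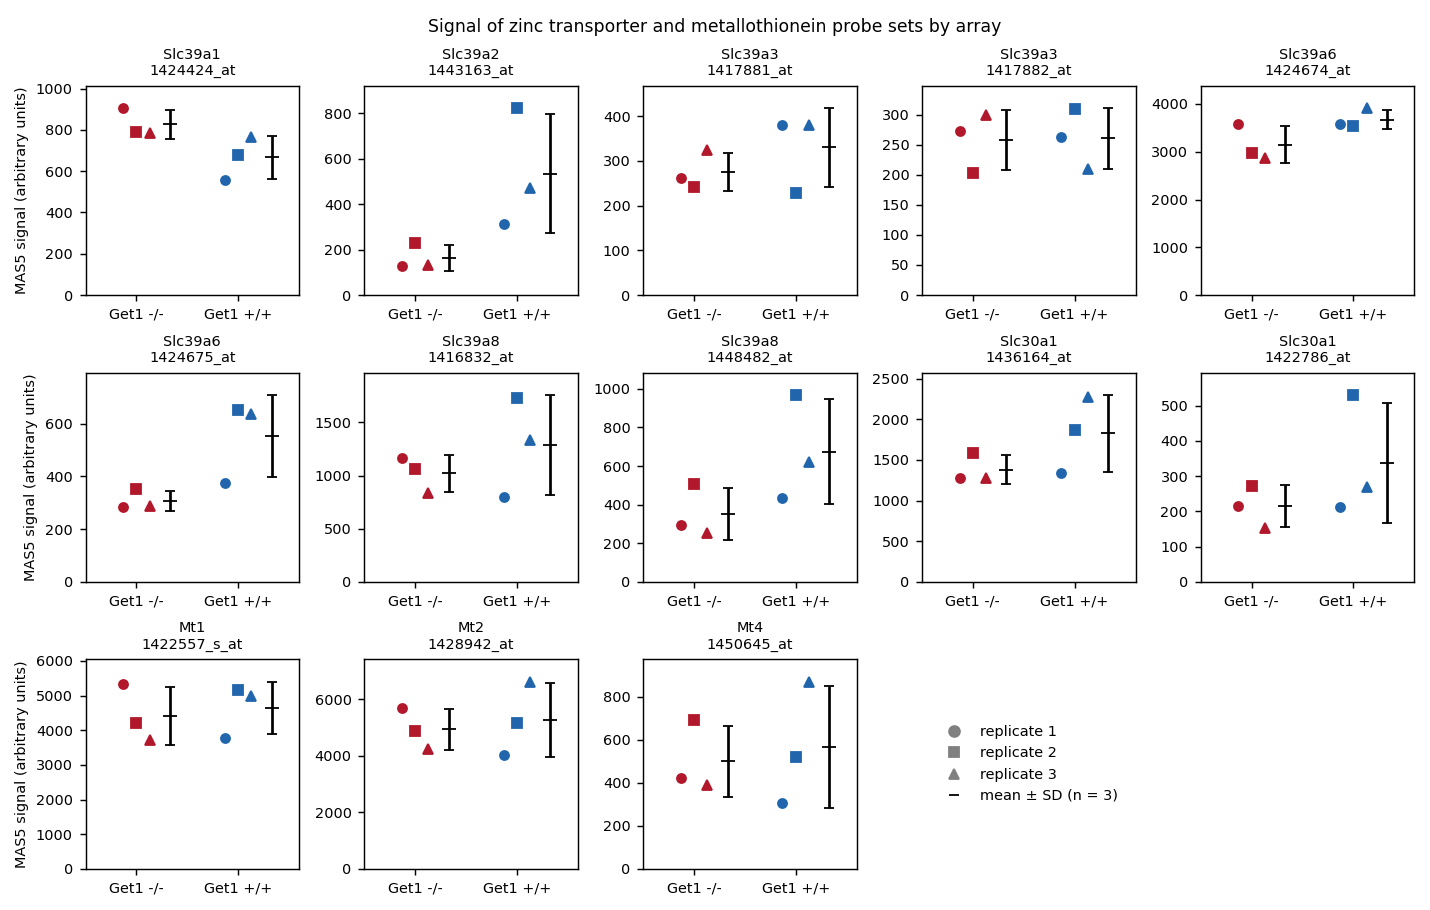
MAS5 signal (arbitrary units, axis from 0) of the 13 kept probe sets in each array, with Get1 -/- in red and Get1 +/+ in blue, marker shape for the replicate and black bars for the mean ± SD (n = 3 each). Slc39a2 and Slc39a6 1424675_at lie lower in all 3 Get1 -/- arrays, Slc39a1 lies higher, and the other 10 panels overlap.

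The zinc exporter gave lower means in Get1 -/- skin with overlapping genotypes. Slc30a1 encodes ZnT1, which moves zinc across the plasma membrane out of the cell. Its probe set 1436164_at read 1276, 1589 and 1279.9 in Get1 -/- skin, against 1338, 1867 and 2277 in Get1 +/+ skin, a log2 difference of -0.38 ± 0.21 (SE). Its probe set 1422786_at read 214, 273 and 154 in Get1 -/- skin, against 212, 529.9 and 268 in Get1 +/+ skin, a difference of -0.58 ± 0.37. The second value rests largely on Get1 +/+ replicate 2, since without that array it was -0.20, and the first was -0.20 without Get1 +/+ replicate 3.

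The metallothioneins Mt1 and Mt2, the zinc-binding proteins that most tissues make, had nearly the same mean in both genotypes. Mt1 (1422557_s_at) read 5342, 4215 and 3709 in Get1 -/- skin, against 3772, 5165 and 4982 in Get1 +/+ skin. Mt2 (1428942_at) read 5705, 4885 and 4231 in Get1 -/- skin, against 4027, 5178 and 6622 in Get1 +/+ skin. In both genes the genotypes overlapped, replicate 1 was the highest and replicate 3 the lowest Get1 -/- array, and Get1 +/+ replicate 1 lay with Get1 -/- replicate 3 at the low end of the 6 arrays. The log2 difference was -0.07 ± 0.18 (SE, 95% interval -0.48 to 0.34) for Mt1 and -0.08 ± 0.20 (-0.52 to 0.37) for Mt2. Differences as large as these bounds therefore remain possible in either direction.

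Another Mt1 probe set, 1451612_at, lay below the filter. It read 6.36, 5.75 and 58.9 in Get1 -/- skin, against 62.0, 77.8 and 39.3 in Get1 +/+ skin, a difference of -2.15 ± 0.92 in a fit of all probe sets without the filter. The genotypes overlapped there, 2 of the 3 Get1 -/- values were near 0, and the kept Mt1 probe set showed no such difference. Mt4 encodes the metallothionein of stratified squamous epithelium, which is made in differentiating keratinocytes. Mt4 read 423, 689 and 388 in Get1 -/- skin, against 306, 517 and 868 in Get1 +/+ skin, a log2 difference of -0.09 ± 0.38. The lowest and the highest of its 6 values were both Get1 +/+ arrays, so the spread within that genotype was larger than the difference between the means (500.0 ± 165 in Get1 -/- skin and 564 ± 284 in Get1 +/+ skin, SD, n = 3 each).

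**Figure D2:**
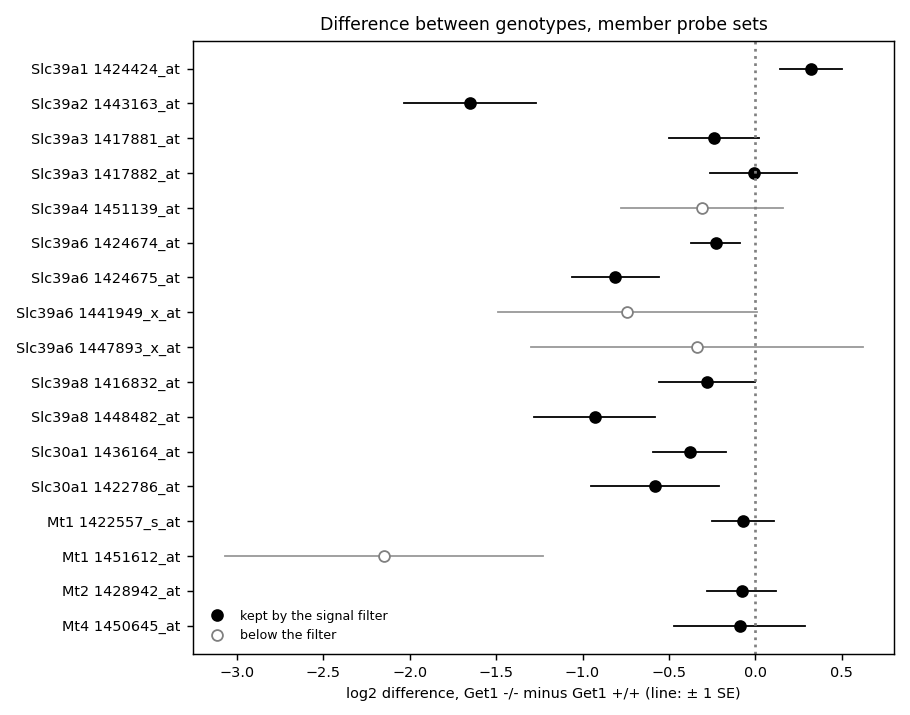
Log2 difference of Get1 -/- minus Get1 +/+ for each of the 17 probe sets, with a line of 1 standard error to either side. Filled points are kept probe sets and open points lie below the signal filter. Slc39a2 is farthest from 0 among the filled points at -1.65, and Mt1 1422557_s_at, Mt2 and Mt4 lie within 0.10 of 0.

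Counted over all members, 16 of the 17 probe sets had a lower and 1 a higher mean log2 signal in Get1 -/- skin, and the median log2 difference was -0.31. Among the 13 kept probe sets the median was -0.24, beside 0.00 over all 22519 kept probe sets, of which 11206 were lower and 11313 higher. The genotypes did not overlap in 3 of the 13, 2 lower and 1 higher, while over all kept probe sets they did not overlap in 11.1% (6.51% lower and 4.63% higher). In limma, 0 of the 13 had an adjusted p under 0.05, against 0.0266% of all kept probe sets (6 of 22519). At an unadjusted p under 0.05 there were 3 of the 13, and 6.72% of all kept probe sets. Since the genes were chosen on this contrast, nothing is read from these counts.

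The arrays themselves differed in ways that touched several members. Get1 +/+ replicate 2 was the highest of the 6 arrays in 6 of the 13 kept probe sets and Get1 +/+ replicate 3 in 5, whereas Get1 -/- replicate 3 and Get1 +/+ replicate 1 were each the lowest in 4. Without Get1 +/+ replicate 2 the log2 difference was -1.29 for Slc39a2, -0.67 for Slc39a6 1424675_at and -0.63 for Slc39a8 1448482_at. Without Get1 +/+ replicate 1 it was -1.99 for Slc39a2, -1.07 for Slc39a6 1424675_at and 0.20 for Slc39a1. The beta-actin control probe set read from 30902 to 31441 on Get1 -/- replicate 1 and Get1 +/+ replicates 1 and 2, and from 22558 to 26889 on the other 3 arrays. These sets come from a cut at the median actin signal, which puts 3 arrays on each side whether or not the values form 2 groups. Within the arrays of high actin signal the difference was -1.96 for Slc39a2, -0.80 for Slc39a6 1424675_at, -1.13 for Slc39a8 1448482_at and 0.56 for Slc39a1. Within those of low actin signal it was -1.45 for Slc39a2, -1.0 for Slc39a6 1424675_at, -0.80 for Slc39a8 1448482_at and 0.04 for Slc39a1. For Mt1 (1422557_s_at) these differences were 0.28 and -0.33, for Mt2 0.32 and -0.54 and for Mt4 0.09 and -0.75, so their sign differed between the 2 sets of arrays. Among the kept probe sets the sign also differed for Slc39a6 1424674_at (0.01 and -0.42) and Slc39a3 1417882_at (-0.06 and 0.24). In each set 1 genotype had a single array, and the actin signal's part in them was not tested.

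**Figure D3:**
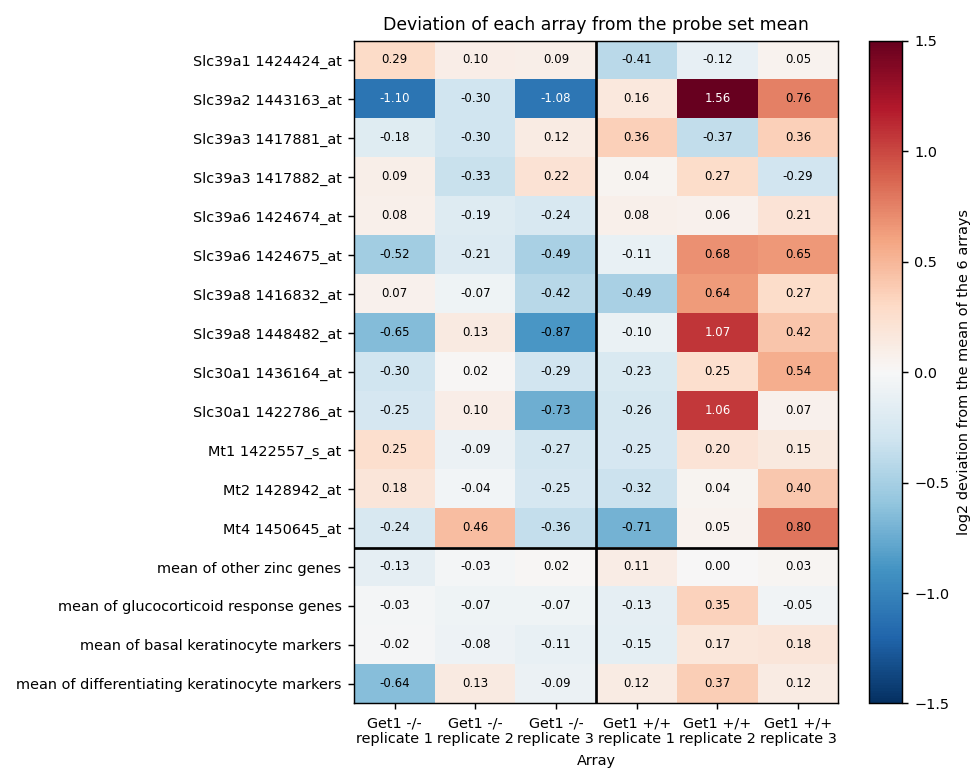
Log2 deviation of each array from the mean of the 6 arrays, for the 13 kept probe sets (upper rows) and the mean of 4 gene lists (lower rows), with the Get1 -/- arrays to the left of the Get1 +/+ arrays. Slc39a2 runs from -1.10 in Get1 -/- replicate 1 to 1.56 in Get1 +/+ replicate 2, while Mt1 stays between -0.27 and 0.25.

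Markers of the cells that make up skin were compared beside these genes. These lists, like those of copper and iron and glucocorticoid response genes below, were chosen with earlier results of these data known. They are therefore not neutral comparisons, and their counts are a description. Of 12 markers of differentiating keratinocytes 11 had lower values in Get1 -/- skin, with a median log2 difference of -0.47 beside 0.01 over all 11387 genes. Their summed signal ran from 127059 to 171652 in Get1 -/- skin and from 182076 to 196479 in Get1 +/+ skin, and none was at 0. The brightest markers weigh most in that sum, whereas each marker counts alike in the mean log2 deviation. It was -0.64, 0.13 and -0.09 on the Get1 -/- arrays, against 0.12, 0.37 and 0.12 on the Get1 +/+ arrays. On this measure the genotypes overlapped, and Get1 -/- replicate 1 lay farthest from the other arrays. In limma 0 of the 12 passed over all genes, where 0.0439% of genes did, and 4 had an unadjusted p under 0.05, all lower, where 8.18% of all genes had one. Krtdap, a secreted protein of suprabasal keratinocytes, had a log2 difference of -0.45 ± 0.12 (SE, adjusted p = 0.469), and Tgm1 one of -0.89 ± 0.30 (adjusted p = 0.567). Of 9 basal keratinocyte markers 8 were lower, with a median of -0.12 and 0 passing, and their sum ran from 62488 to 64937 in Get1 -/- skin and from 63026 to 76222 in Get1 +/+ skin. Among these, Krt15 (-0.29 ± 0.13, adjusted p = 0.613) and Col17a1 (-0.29 ± 0.15, adjusted p = 0.636) had the smallest p, and 0 of the 9 had an unadjusted p under 0.05. The part of cell makeup in the Slc39a2, Slc39a6 and Slc39a8 values was not tested.

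Markers of other cells gave the following. Macrophage markers summed to between 16294 and 18676 in Get1 -/- skin and between 10882 and 15185 in Get1 +/+ skin, with 8 of 9 higher (median 0.49), and 0 passed over all genes while 5 had an unadjusted p under 0.05 (8.18% of all genes did). Skeletal muscle markers (9 of 9 higher, median 0.33) and dermal fibroblast markers (3 of 8 higher, median -0.07) had sums that overlapped between the genotypes. The endothelial sums ran from 5693 to 7062 in Get1 -/- skin and from 5171 to 5732 in Get1 +/+ skin and overlapped. Melanocyte sums overlapped too, with 5 of 7 markers lower (median -0.38) and 2 at an unadjusted p under 0.05, both lower. The sums of adipocyte, mast cell, erythroid (2 of 8 markers tested) and Schwann cell markers (3 of 7 tested) overlapped as well. In all 11 marker lists 0 genes passed in limma, between 0 and 5 per list had an unadjusted p under 0.05, and 0 were listed at 0.

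The other genes of zinc handling are what was left of these families once the members had been taken with their differences known, so the list is not a neutral comparison. It held the remaining Slc39 and Slc30 genes, the neuronal metallothionein Mt3 and the zinc sensor Mtf1. Of 19 genes 13 were kept and tested, 8 lower and 5 higher in Get1 -/- skin. In limma 0 passed over all genes, where 0.0439% did, and 0 had an unadjusted p under 0.05, where 8.18% of all genes did. The median log2 difference was -0.09, beside 0.01 over all genes. Over all 18 kept probe sets of these genes, 11 were lower and 7 higher, from -0.49 to 0.20, and 0 had an unadjusted p under 0.05. The lowest was a dimmer probe set of Slc39a10, an importer known from epidermal progenitors, which read 789, 1285 and 1049 in Get1 -/- skin, against 1099.5, 1731 and 1563 in Get1 +/+ skin, with overlapping genotypes.

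The genes of this list with the smallest p lay within the range of most genes. Slc30a3, which fills vesicles with zinc in neurons, read 241, 199 and 191 in Get1 -/- skin, against 293, 375 and 203 in Get1 +/+ skin (log2 difference -0.43 ± 0.26 SE, limma adjusted p = 0.699). Slc30a6, a transporter of the secretory pathway, differed by -0.30 ± 0.19 (adjusted p = 0.710). Slc39a11 read 552, 489 and 561 in Get1 -/- skin, against 574, 616 and 741 in Get1 +/+ skin (-0.26 ± 0.17, adjusted p = 0.715), the only gene of the 13 whose genotypes did not overlap, as in 6.78% of all genes in this direction. Slc39a14, an importer of zinc, manganese and iron, differed by -0.23 ± 0.17 (adjusted p = 0.753). Mtf1, the factor that binds metal response elements, read 387, 372 and 391 in Get1 -/- skin, against 331, 267 and 421 in Get1 +/+ skin, with overlapping genotypes and a difference of 0.20 ± 0.20. It was named for its role and not by its p. The genes Slc39a5, Slc39a12, Slc30a2, Slc30a8, Slc30a10 and Mt3 had no kept probe set. Of these, Mt3 read 82.0, 46.5 and 98.4 in Get1 -/- skin, against 29.0, 25.0 and 32.8 in Get1 +/+ skin, higher without overlap. Its difference was 1.33 ± 0.51 (SE) in the fit without the filter. All 6 values lay below the filter's signal, and the other probe sets of this list below it differed in both directions.

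Genes that handle copper and iron were taken as a comparison with other metals. Of 23 genes 19 were tested, 12 lower and 7 higher, with a median log2 difference of -0.05 beside 0.01 over all genes. In limma 0 passed, where 0.0439% of all genes did, and 0 had an unadjusted p under 0.05, where 8.18% of all genes did. The transferrin receptor Tfrc, which takes up iron, read 1645, 1748 and 1739.6 in Get1 -/- skin, against 1636, 865 and 1423 in Get1 +/+ skin (0.44 ± 0.23 SE, adjusted p = 0.637). Its genotypes did not overlap, as in 5.20% of all genes in this direction, but Get1 -/- replicate 1 and Get1 +/+ replicate 1 were close. Next by p came Ireb2, an iron-sensing RNA-binding protein (0.49 ± 0.26, adjusted p = 0.643), the iron transporter Slc11a2 (-0.41 ± 0.23, adjusted p = 0.661) and Slc31a2, a relative of the copper importer (-0.25 ± 0.14, adjusted p = 0.676). Slc31a2 did not overlap either, with 885, 863 and 823 in Get1 -/- skin, against 942, 1054 and 1062 in Get1 +/+ skin, as in 6.78% of all genes in that direction.

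Metallothioneins are induced by glucocorticoids as well as by metals, so glucocorticoid response genes were set beside them. Of 18 genes 17 were tested, 12 lower and 5 higher, with a median log2 difference of -0.13 beside 0.01 over all genes. In limma 0 passed over all genes, where 0.0439% did, and 4 had an unadjusted p under 0.05, 2 in each direction, beside 8.18% of all genes. These were Cebpb, a transcription factor of epidermal differentiation (-0.48 ± 0.13 SE, adjusted p = 0.486), Angptl4, an inhibitor of lipoprotein lipase (0.64 ± 0.18, adjusted p = 0.497), the receptor co-chaperone Fkbp5 (0.39 ± 0.15, adjusted p = 0.580) and the cell cycle inhibitor Cdkn1a (-0.32 ± 0.14, adjusted p = 0.606). Get1 +/+ replicate 2 stood above the other arrays in this list, with a mean log2 deviation of 0.35 where the others lay between -0.13 and -0.03. Mt1 deviated by 0.20 and Mt2 by 0.04 on that array, and Slc39a2, Slc39a8 1448482_at and Slc30a1 1422786_at by 1.56, 1.07 and 1.06. The part of that array's state in these values was not tested.

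**Figure D4:**
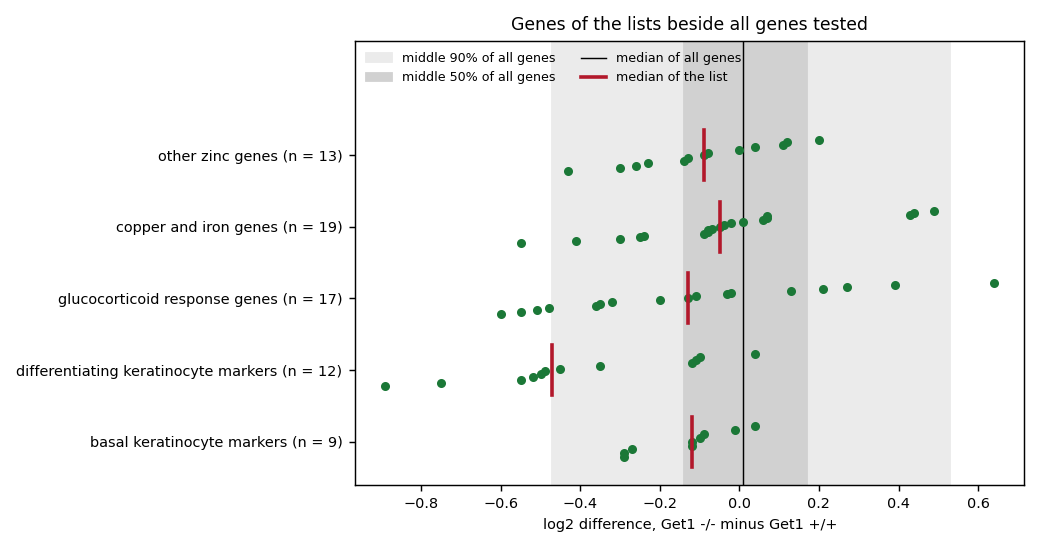
Log2 difference of Get1 -/- minus Get1 +/+ for each tested gene (green points) of 5 lists, with the median of the list as a red line, over grey bands for the middle 50% and 90% of all 11387 genes. With the brightest kept probe set of each gene, the other zinc genes lie between -0.43 and 0.20, inside the wider band, and the median of the differentiating keratinocyte markers is -0.47.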

How the data were processed

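Total RNA of 6 mouse back skins was hybridised to 1-colour oligonucleotide arrays. The deposited values are linear signal intensities made with MAS5, per the submitters' processing notes, and their 2% trimmed mean was 500 on every array, so no further scaling was applied. After removal of 64 control probe sets, values were turned into log2. Probe sets with a mean at or above the median were kept (22519), and for each gene the brightest of its kept probe sets was used (11387 genes). The comparison used limma 3.58.1 (R 4.3.3, eBayes with trend, two-sided), with Benjamini-Hochberg adjustment across the whole table, and was checked on simulated data. No source says that the mice were of separate litters. Replicate numbers are shared by the genotypes in the labels, and deviations of same-numbered mice correlated at 0.133, 0.26 and 0.14 over kept probe sets, above the limit of 0.1, but at -0.0195, 0.361 and -0.0251 over genes, so the unpaired fit stays the main one. The members and lists were chosen with earlier results of these data known. Names came from the platform annotation, which gives 1 symbol for 34945 probe sets, several for 932 and none for 9160. Genes given with values outside the members are Grhl3, the 4 of each pathway list with the smallest p, and the 2 of each keratinocyte list. Mtf1, Slc39a10 and Mt3 were added afterwards, and Slc39a10 and Mt3 were picked with their values seen.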

Additional observations from a re-analysis of the deposited data

How the results depend on the processing

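The number of probe sets past the threshold was 6, and it was 13 with median centring, 35 with the replicate block, and between 4 and 25 with 1 array left out (25 without Get1 +/+ replicate 1). The number of genes was 5, and it was 10 with median centring, 8 with array weights, 44 with the replicate block, and between 3 and 122 with 1 array left out (3 without Get1 +/+ replicate 2 or 3 and 122 without Get1 +/+ replicate 1). The causes were not tested. Under all 14 alternatives run on probe sets 0 of the member probe sets tested passed. The stricter filter tested only 8 of them, and Slc39a2 and Slc39a6 1424675_at were not among these. Under all 15 alternatives run on genes 0 of the other zinc, copper and iron or glucocorticoid response genes passed, the replicate block included. Grhl3 stayed lower and short of the threshold, from -0.74 without Get1 +/+ replicate 2 to -1.23 without Get1 +/+ replicate 1 (adjusted p from 0.0733 to 0.975 over the alternatives). Slc39a2 ranged from -1.99 to -1.29, Slc39a6 1424675_at from -1.07 to -0.67 and Slc39a8 1448482_at from -1.23 to -0.63. The brighter probe sets ranged from -0.33 to -0.17 for Slc39a6 (1424674_at) and from -0.59 to -0.03 for Slc39a8 (1416832_at). The signs of Mt1 1422557_s_at and Mt2 turned in 2 alternatives each, that of Mt4 in 3 and that of Slc39a3 1417882_at in 4. No detection calls were used, so which dim probe sets were above background is not known.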
